A study of Mus musculus with 7 samples.

Results

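The 9 enzymes that turn squalene into cholesterol were followed in prostate luminal cells, the inner, secretory layer of the gland, that were sorted from mice with and without an ETV1 allele. The enzymes were chosen by name (Sqle, Lss, Cyp51, Msmo1, Nsdhl, Hsd17b7, Ebp, Sc5d and Dhcr7), and all probe sets annotated to them were taken. This gave 9 of the 18193 genes measured, and 19 of the 45037 deposited probe sets. RNA was measured on Affymetrix mouse expression arrays after amplification, with 4 arrays of T-ETV1 cells (A to D) and 3 of wild-type cells (WT, A to C). T-ETV1 mice carry a cDNA of human ETV1, an ETS-family transcription factor that is joined to TMPRSS2 in some prostate cancers, driven by the mouse's own Tmprss2 promoter, so that the allele is on where that promoter is active. Both groups were sorted as negative for CD31, CD45, Ter119 and Sca1 and positive for CD49f. T-ETV1 cells were in addition sorted as positive for GFP and WT cells were not, so allele and GFP gate cannot be told apart. The series text speaks of 3 biological replicates, but whether an array stands for 1 mouse or a pool, and the age and strain of the mice, are not stated in the labels. The p-values therefore measure the spread between these arrays.

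Cholesterol is built from acetyl-CoA by way of mevalonate and squalene. In the late steps, which take place in the endoplasmic reticulum, squalene is oxidised and folded into the ring system of lanosterol, from which methyl groups are removed and double bonds are shifted or reduced until cholesterol is left. Genes of the whole route are known to be switched on together by the transcription factor SREBP2 when membranes are low in sterol, with NF-Y and Sp1 as partners at their promoters. In the prostate, cholesterol is a building block of membranes and a precursor of steroid hormones.

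The arrays were alike enough to use on their deposited scale, with median intensities between 48.5 and 62.9 in T-ETV1 and between 51.8 and 73.7 in WT. The 6 measured luminal markers (Krt8, Krt18, Cd24a, Epcam, Cdh1 and Pbsn) summed to intensities between 47564 and 54439 in T-ETV1 and between 49189 and 51641 in WT. Markers of other cell types were present as well, and in each list that follows array C had the highest sum of its group. The 4 basal markers summed to between 282 and 13681 in T-ETV1, where the arrays other than C reached at most 1157, and to between 3948 and 15893 in WT. For the 6 endothelial markers the sums were 356 to 2174 in T-ETV1 and 1604 to 3390 in WT, and for the 6 leukocyte markers 5924 to 10978 in T-ETV1 and 6974 to 15332 in WT. In each array but WT C most of the leukocyte sum was Cd52, singled out after its values were seen, at 5751 to 9153 in T-ETV1 and 6657 to 7259 in WT, and the other 5 summed to 93.1 to 290 in T-ETV1 A, B and D and 3132 in T-ETV1 C, against 77.8 and 143 in WT A and B and 8675 in WT C. The 6 fibroblast markers summed to 1782 to 8469 in T-ETV1 and 3764 to 20383 in WT, and the 5 smooth muscle markers to 110 to 790 in T-ETV1 and 529 to 5266 in WT. Plvap in T-ETV1, and Cnn1 in both groups, averaged under an intensity of 16. In sorted bulk RNA, fewer cells of a type and less RNA per cell cannot be told apart. The probe sets of Etv1 itself carry a pair of gene names and were not used, so the allele was not checked here.

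RefSeq promoter windows, from 250 bases before to 50 after the start of a gene (build GRCm38.p6), were matched for 8 of the 9 enzymes, all but Sqle. Of the windows, 4 are shown, those of Msmo1, Hsd17b7, Lss and Ebp. Among enzymes with a window, the levels of Msmo1 and Hsd17b7 followed the other enzymes most closely. Those of Lss and Ebp did so least, each by its brightest probe set. Capitals mark the NF-Y box, CCAAT or its reverse complement, and the annotated start is base 251 of each line. Msmo1 is at chr8:64733529-64733828 on the minus strand, Hsd17b7 at chr1:169969156-169969455 on the minus strand, Lss at chr10:76531355-76531654 on the plus strand and Ebp at chrX:8193463-8193762 on the minus strand.
Msmo1: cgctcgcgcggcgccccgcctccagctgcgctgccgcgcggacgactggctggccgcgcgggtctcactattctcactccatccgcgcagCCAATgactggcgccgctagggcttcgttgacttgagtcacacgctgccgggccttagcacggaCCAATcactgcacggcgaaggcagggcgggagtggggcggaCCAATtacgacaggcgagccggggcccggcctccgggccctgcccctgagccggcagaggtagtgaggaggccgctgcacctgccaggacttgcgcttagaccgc
Hsd17b7: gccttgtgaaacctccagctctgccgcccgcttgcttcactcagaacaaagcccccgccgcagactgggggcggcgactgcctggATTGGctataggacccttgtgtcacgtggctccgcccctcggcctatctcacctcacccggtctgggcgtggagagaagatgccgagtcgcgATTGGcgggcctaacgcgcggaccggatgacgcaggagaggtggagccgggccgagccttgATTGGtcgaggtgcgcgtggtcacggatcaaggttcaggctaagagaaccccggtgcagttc
Lss: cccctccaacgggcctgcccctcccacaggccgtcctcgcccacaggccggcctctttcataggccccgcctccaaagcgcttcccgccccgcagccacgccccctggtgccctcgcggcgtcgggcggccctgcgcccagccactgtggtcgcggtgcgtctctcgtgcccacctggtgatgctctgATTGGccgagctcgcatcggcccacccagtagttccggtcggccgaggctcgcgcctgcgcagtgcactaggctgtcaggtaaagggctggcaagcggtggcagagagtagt
Ebp: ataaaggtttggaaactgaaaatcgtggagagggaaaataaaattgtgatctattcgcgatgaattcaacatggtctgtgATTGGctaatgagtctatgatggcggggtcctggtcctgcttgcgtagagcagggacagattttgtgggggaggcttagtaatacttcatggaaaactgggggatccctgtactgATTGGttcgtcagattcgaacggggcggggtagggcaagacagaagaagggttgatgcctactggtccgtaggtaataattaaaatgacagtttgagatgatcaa
Searched on both strands, CCAAT was in a window of 8 of the 8 enzymes, against 41.1% of all 27025 genes with a window. It occurred 3 times in Msmo1, 3 times in Hsd17b7, 2 times in Ebp and 1 time in Lss. In the enzymes not shown it occurred 4 times in Nsdhl and 1 time each in Cyp51 and Sc5d. Dhcr7 held it 2 times, in only 1 of its 3 windows. The Sp1 box GGGCGG was likewise in a window of 8 of the 8 enzymes, against 38.2% of all genes. The core of the sterol regulatory element, searched as TCACNCCAC, was in none of the 8, against 1.44% of all genes; these letters are simply not in the windows, which says nothing of SREBP2 binding with other letters or elsewhere. No match overlapped a match of another motif. All of these are matches of letters, not sites shown to be bound.

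Each of the 9 enzymes had a mean above WT in T-ETV1, and none passed the test. The log2 differences, T-ETV1 minus WT, ran from 0.11 for Lss to 0.70 for Sqle, with a median of 0.35, while the median over all genes was -0.03. A difference above 0 was found in 44.4% of all genes. By limma, an adjusted p under 0.05 was reached by 0 of the 9 and by 0 of all 18193 genes (0%), and the adjusted p of the 9 lay between 0.717 and 0.952. At an unadjusted limma p under 0.05 there were 3 of the 9, Sqle, Msmo1 and Hsd17b7, all higher, against 2.00% of all genes that were higher at that p (364 genes, of 1113 at that p in either direction). After quantile normalization 4 of the 9 and 606 genes were higher at that p, and after median centring 4 of the 9 and 703 genes. Only 1 of the 9 reached that p with the mean of all probe sets of a gene, beside 364 genes that were higher. It was also 1 without T-ETV1 A (398 genes higher), without WT A (265) or without WT C (454). Without T-ETV1 B (373) or D (304) it was 2. In 2 of the 9, Sqle and Msmo1, every T-ETV1 array lay above every WT array, against 2.42% of all genes. All differences are on the scale log2(intensity + 16), and levels are compared only within a probe set. The median of the 9 was 0.20 when T-ETV1 B was left out and 0.54 when T-ETV1 C was.

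**Figure D1:**
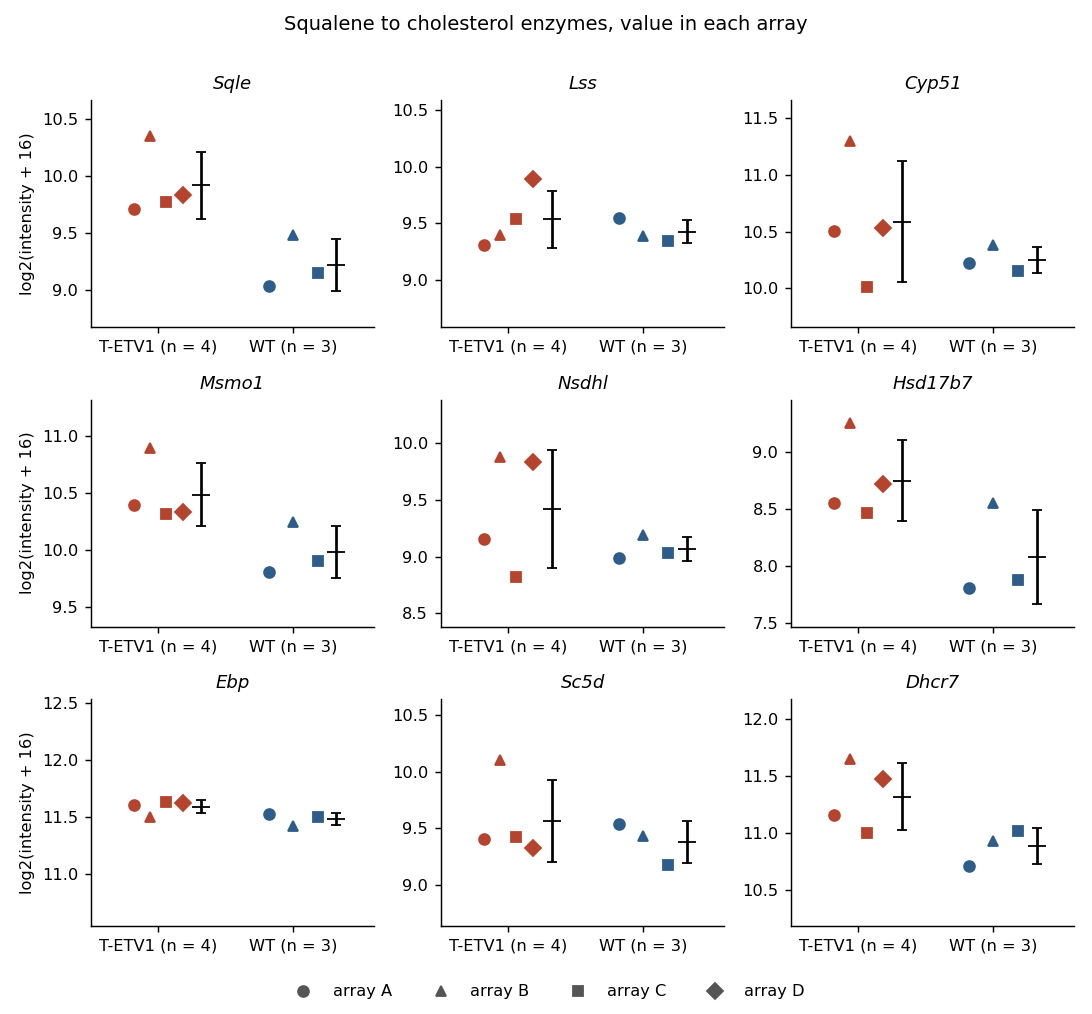
Level of each enzyme in each array, in pathway order, as log2(intensity + 16), every panel spanning 2 log2 units; the symbol gives the array letter, and the bar beside each group its mean ± SD (n = 4 T-ETV1, n = 3 WT). All T-ETV1 points lie above all WT points in Sqle and Msmo1 only, and the T-ETV1 B triangle is the highest point in 7 of the 9 panels.

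Squalene is made ready for ring closure by Sqle, squalene epoxidase, a rate-limiting enzyme of sterol synthesis that is known to be broken down when cholesterol is plentiful. Sqle (probe set 1415993_at) had intensities of 821, 1289, 859 and 896 in T-ETV1 A to D, against 507, 697 and 550 in WT A to C. The groups did not overlap, and array B was the highest of each. The mean log2 level was 9.92 ± 0.29 in T-ETV1 (SD, n = 4) and 9.22 ± 0.23 in WT (SD, n = 3). The log2 difference was 0.70 ± 0.20 (SE; 95% interval 0.23 to 1.17), a fold of 1.62 on that scale, with a limma adjusted p of 0.717.

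Lss, lanosterol synthase, closes the rings. Its brightest probe set (1426913_at) had intensities of 620, 660, 727 and 932 in T-ETV1 A to D, against 731, 654 and 635 in WT A to C. The groups overlapped, since T-ETV1 A was the lowest and T-ETV1 D the highest of all 7 arrays. The log2 difference of Lss was 0.11 ± 0.16 (SE; 95% interval -0.27 to 0.49), and it was -0.01 without T-ETV1 D and 0.18 without T-ETV1 A. A pair of dimmer Lss probe sets had differences of 0.27 ± 0.25 and 0.25 ± 0.29, and in both of these T-ETV1 B was the highest array, at 511 and 524.

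The lanosterol rings are next trimmed of methyl groups. Cyp51, the lanosterol demethylase and a cytochrome P450, had intensities of 1441, 2505, 1020 and 1464 in T-ETV1 A to D (1450646_at), against 1177, 1317 and 1120 in WT A to C. T-ETV1 B stood far above the rest, while T-ETV1 C was the lowest of all 7, so the groups overlapped. The difference for Cyp51 was 0.34 ± 0.29 (SE; 95% interval -0.35 to 1.03). Leaving out T-ETV1 B brought it to 0.10, and leaving out C to 0.53. Its other probe sets gave 0.76 ± 0.46 and, at a mean intensity of 91.3, 0.30 ± 0.52.

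Msmo1, the methylsterol monooxygenase that starts removal of the remaining pair of methyl groups, had intensities of 1332, 1887, 1256 and 1277 in T-ETV1 A to D (1423078_a_at), against 876, 1195 and 939 in WT A to C. Here all T-ETV1 arrays lay above all WT arrays, though T-ETV1 C exceeded WT B by only 0.07 on the log2 scale. Msmo1 averaged 10.49 ± 0.27 in T-ETV1 (SD, n = 4) and 9.98 ± 0.23 in WT (SD, n = 3). Its difference was 0.50 ± 0.19 (SE; 95% interval 0.05 to 0.96; limma adjusted p = 0.794), and the other Msmo1 probe set gave 0.46 ± 0.44.

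Nsdhl, the dehydrogenase that takes off the carboxyl group left by Msmo1, had intensities of 552, 926, 437 and 894 in T-ETV1 A to D (1416222_at), against 492, 567 and 506 in WT A to C. T-ETV1 B and D were high and T-ETV1 C was the lowest of all arrays, a spread of 0.52 (SD of log2, n = 4) against 0.11 in WT (SD, n = 3). The difference for Nsdhl was 0.35 ± 0.28 (SE; 95% interval -0.32 to 1.03), and leaving out single T-ETV1 arrays gave 0.20 without B, 0.55 without C and 0.22 without D.

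Hsd17b7, the keto-steroid reductase that completes each demethylation and can also reduce estrone, had intensities of 360, 597, 339 and 406 in T-ETV1 A to D, against 208, 361 and 219 in WT A to C. Only WT B reached the level of the lower T-ETV1 arrays. The means were 8.75 ± 0.35 in T-ETV1 (SD, n = 4) and 8.08 ± 0.41 in WT (SD, n = 3), a difference of 0.67 ± 0.26 (SE; 95% interval 0.04 to 1.30; limma adjusted p = 0.804). That probe set, 1457248_x_at, has the suffix by which Affymetrix marks probe sets that can also match other transcripts. Of the other Hsd17b7 probe sets, 1448865_at gave 0.63 ± 0.40, and those with mean intensities of 33.2 and 7.91 gave -0.27 ± 0.30 and 0.31 ± 0.17. Averaging the probe sets in place of taking the brightest gave Hsd17b7 a difference of 0.33.

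The last enzymes move and reduce double bonds. Ebp, the sterol isomerase, also known as the emopamil binding protein, had intensities of 3109, 2887, 3154 and 3145 in T-ETV1 A to D (1416667_at), against 2931, 2732 and 2876 in WT A to C. It varied least of the 9, with log2 SDs of 0.06 in T-ETV1 and 0.05 in WT, and array B was the lowest of each group. The difference for Ebp was 0.11 ± 0.09 (SE; 95% interval -0.11 to 0.33).

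Sc5d, the sterol desaturase of the next step, had intensities of 662, 1082, 670 and 626 in T-ETV1 A to D (1451457_at), against 729, 674 and 563 in WT A to C. T-ETV1 A, C and D lay within the WT range, and T-ETV1 B far above it. The difference for Sc5d was 0.18 ± 0.22 (SE; 95% interval -0.34 to 0.70) and came to 0.00 without T-ETV1 B and 0.08 without WT C. Its other probe sets gave -0.03 ± 0.32 and, at a mean intensity of 22.9, 0.13 ± 0.60.

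Dhcr7, the reductase that makes cholesterol from its immediate dehydro precursor and is mutated in human Smith-Lemli-Opitz syndrome, had intensities of 2266, 3196, 2034 and 2829 in T-ETV1 A to D (1448619_at), against 1657, 1937 and 2056 in WT A to C. T-ETV1 C lay just below WT C, and the other T-ETV1 arrays lay above all WT arrays. The means were 11.32 ± 0.29 in T-ETV1 (SD, n = 4) and 10.89 ± 0.16 in WT (SD, n = 3). The difference of 0.43 ± 0.18 (SE; 95% interval -0.01 to 0.88) had a limma adjusted p of 0.819.

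**Figure D2:**
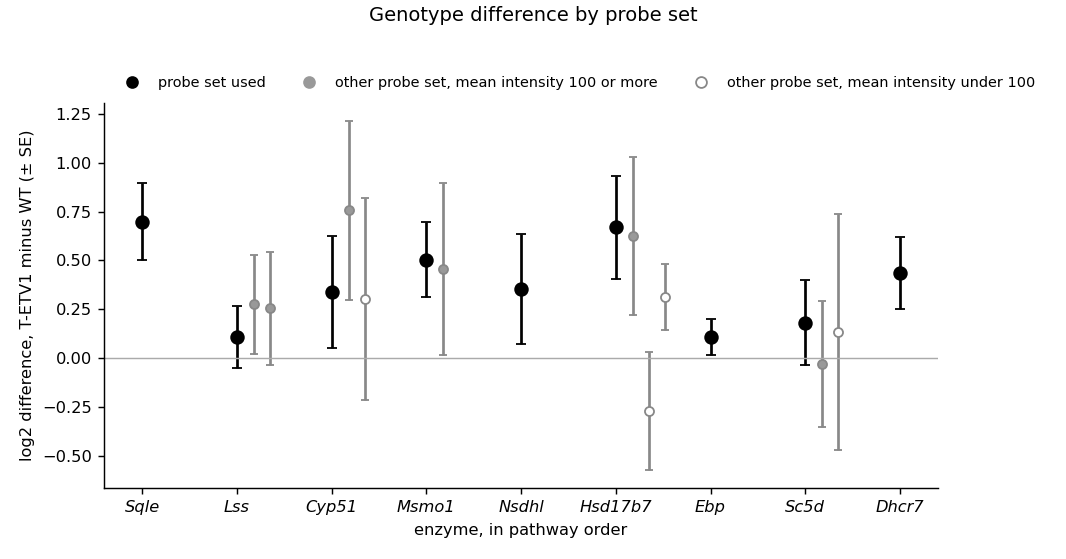
Log2 difference, T-ETV1 minus WT, with its SE, for the probe set used for each enzyme (black) and for the other 10 probe sets of the same enzymes (grey, open where the mean intensity is under 100), enzymes in pathway order. Of the 19 probe sets 17 lie above 0; the 2 below are a dim one of Hsd17b7 and one of Sc5d.

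Most of the enzymes shared a pattern over arrays that lay partly across the genotypes. Averaged over the 9, the deviation from each enzyme's 7-array mean was 0.01, 0.51, -0.08 and 0.21 in T-ETV1 A to D, against -0.28, -0.08 and -0.29 in WT A to C. T-ETV1 B was thus far the highest, and T-ETV1 C lay level with WT B. T-ETV1 B was the highest array in 7 of the 9 enzymes, with Lss highest in T-ETV1 D and Ebp in T-ETV1 C. The lowest array was WT A in 4 enzymes, T-ETV1 C in 2, and T-ETV1 A, WT B and WT C in 1 each. The median deviation over all genes was -0.02 in T-ETV1 B. T-ETV1 B also had the largest luminal marker sum, 54439, and the largest sum of the 5 seminal vesicle secretory genes, 42036, against 33425 to 40295 in the other T-ETV1 arrays. In WT this sum was 26387 to 33036, so every T-ETV1 array lay above every WT array, the lowest of them by little. Without Svs5, the brightest of the 5, the sums overlapped, at 21111 to 29117 in T-ETV1 and 15226 to 21951 in WT. Taken singly, only Svs5 did not overlap between the groups. All 5 of these genes had a higher mean in T-ETV1, with a median log2 difference of 0.47, and none passed the limma threshold. The part of these markers in the enzyme levels was not tested.

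**Figure D3:**
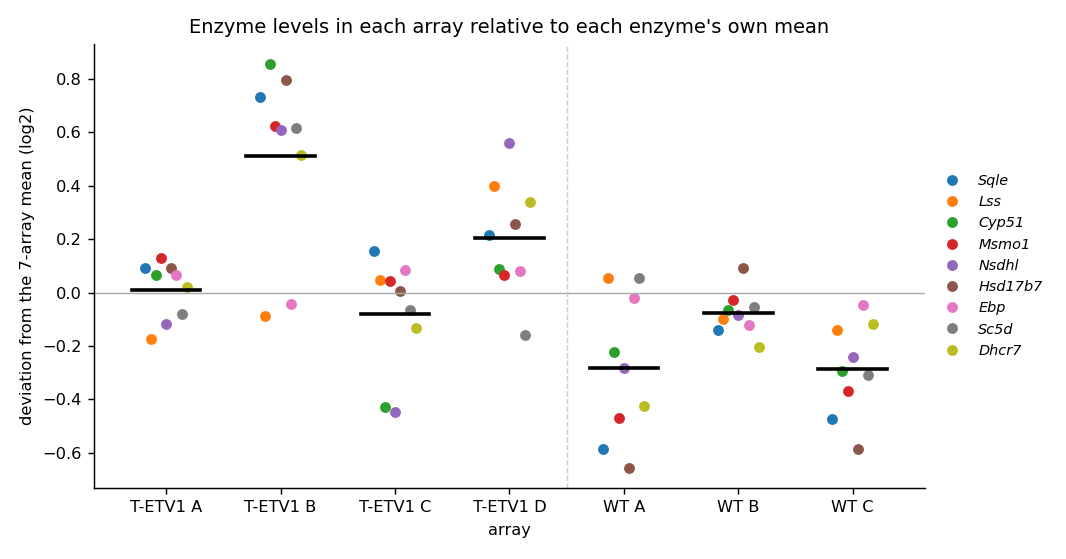
Deviation of each enzyme (coloured points) from its own mean over the 7 arrays, in log2 units, by array, with the mean of the 9 as a black bar. The bar of T-ETV1 B stands at 0.51, above all others, and that of T-ETV1 C at -0.08, level with WT B.

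As a measure of likeness, Pearson's r of each enzyme with the mean profile of the other 8 was taken over the 7 arrays, which share their scaling. It was 0.931 for Hsd17b7, 0.925 for Sqle, 0.922 for Msmo1, 0.912 for Dhcr7, 0.861 for Cyp51, 0.825 for Nsdhl and 0.671 for Sc5d, but 0.115 for Lss and 0.101 for Ebp. The place of Lss apart belongs to its brightest probe set, because the dimmer pair had r of 0.824 and 0.778. In other enzymes r depended on the probe set as well. The dimmer ones had 0.161 for Msmo1, 0.81 and 0.356 for Cyp51, 0.492 and -0.317 for Sc5d, and 0.685, -0.091 and 0.255 for Hsd17b7. Taken on deviations from the group means, r was above 0 in 24 of the 36 pairs of enzymes. On that reading Ebp had a negative r with each other enzyme but Lss (0.44), from -0.56 with Nsdhl to -0.9993 with Msmo1. These are descriptions of 7 arrays.

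Arrays with the same letter deviated together from their group means over all genes, so the differences were also read within letters A, B and C. T-ETV1 D and WT A, of unlike letter, did so too (r = 0.187), and the labels do not say what a letter stands for. T-ETV1 was higher in 7 of the 9 enzymes for A (median log2 difference 0.29), in 9 of 9 for B (0.69) and in 6 of 9 for C (0.19), where 47.9%, 48.5% and 44.1% of all genes were higher. Sqle, with 0.68, 0.87 and 0.63, Msmo1, with 0.60, 0.65 and 0.41, Hsd17b7, with 0.75, 0.70 and 0.59, and Ebp, with 0.08, 0.08 and 0.13, were the 4 enzymes higher in all 3 letters. The share of all genes higher in all 3 letters was not counted, so no weight is put on that number. Lss was lower for A (-0.23), as was Sc5d (-0.14), while Cyp51 (-0.13), Nsdhl (-0.21) and Dhcr7 (-0.02) were lower for C. T-ETV1 D has no WT array of its letter and drops out of this reading.

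The arrays C, which had the highest sums of basal, endothelial, leukocyte, fibroblast and smooth muscle markers in their groups, had the lowest mean enzyme level of their group, WT C on a par with WT A. With both arrays C left out, the 9 enzymes were all higher in T-ETV1 with a median of 0.52, and the lowest adjusted p of the 9 was 0.437, for Dhcr7. The marker sums still differed between the groups in those 5 arrays: the basal markers came to 282 to 1157 in T-ETV1 and 3948 to 10277 in WT, and the endothelial, fibroblast and smooth muscle sums did not overlap either, all lower in T-ETV1. Their part in the enzyme differences was not tested. Over all genes, that comparison of 5 arrays called 68.

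Other cholesterol genes were read beside the 9, and none of them passed the limma threshold. Of 7 measured enzymes, of 9 listed, from acetyl-CoA to squalene, 6 were higher in T-ETV1, with a median log2 difference of 0.27. Fdft1, the squalene synthase that makes the substrate of Sqle, had 0.62 ± 0.24 (SE), and its groups did not overlap. Idi1, an isomerase of isoprenoid units, had 0.71 ± 0.34, Mvd, the mevalonate diphosphate decarboxylase, 0.35 ± 0.26 and Fdps, the farnesyl diphosphate synthase, 0.27 ± 0.20, with an Fdps probe set of opposite sign. Of 9 measured genes, of 11 listed, of SREBP control and sterol uptake 8 were higher, with a median of 0.23. Srebf2, which encodes SREBP2, had 0.23 ± 0.10, with every T-ETV1 array above every WT array, Srebf1 0.34 ± 0.20 and the SREBP escort Scap 0.27 ± 0.19. Mbtps2, a protease that releases SREBP, had -0.27 ± 0.14.

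The electron supply of the late steps had other values. Of 4 measured genes that hand electrons to or bind these enzymes 1 was higher: Pgrmc1, a haem protein that binds Cyp51, had 0.06 ± 0.09. Cyb5r3, the cytochrome b5 reductase, had -0.37 ± 0.17, and the cytochromes b5 Cyb5a and Cyb5b had -0.09 ± 0.09 and -0.04 ± 0.10, with a Cyb5b probe set of opposite sign. Of the other sterol reductases, Tm7sf2 had 0.12 ± 0.16 and Lbr, which is also an anchor of the nuclear lamina, -0.11 ± 0.32. Differences between these lists were not tested.

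**Figure D4:**
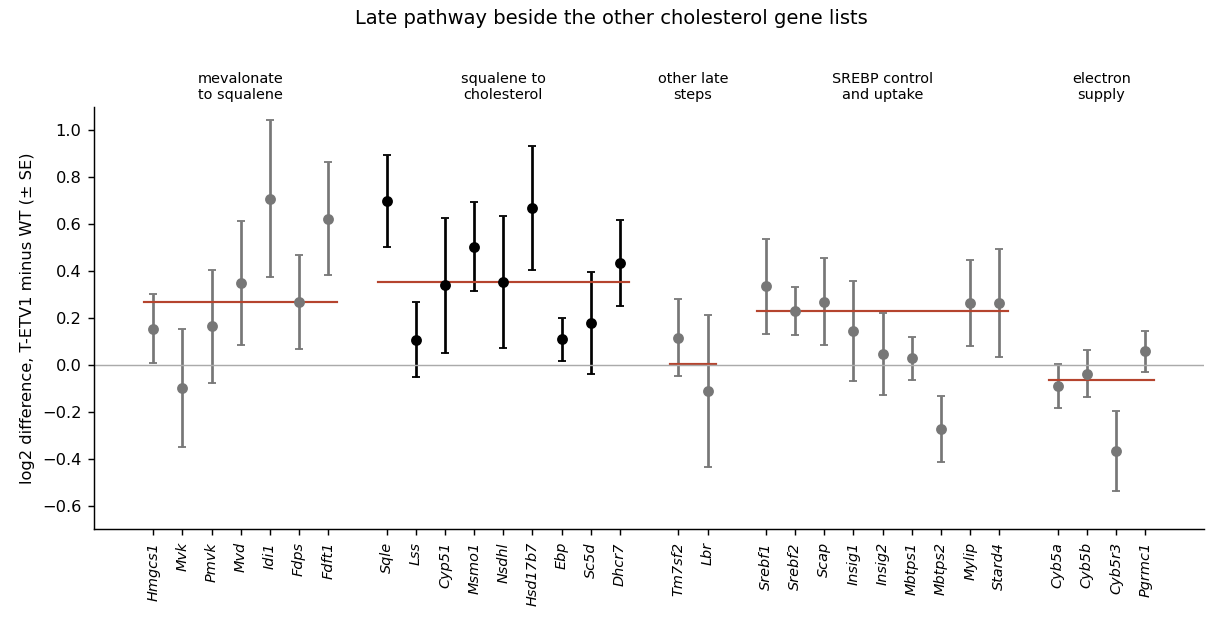
Log2 difference, T-ETV1 minus WT, with its SE, for the 9 enzymes (black) and the genes of 4 other lists (grey), with each list's median as a red line. Medians stand at 0.27 before squalene, 0.35 after it, 0.00 for the other late steps, 0.23 for SREBP control and uptake and -0.06 for electron supply, and no gene shown passed the limma threshold.

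Among 10197 named genes with a mean intensity of at least 100, those whose 7-array profile was most like the mean of the 9 enzymes were Esco1 (r = 0.995), Aacs (0.979), Atp6ap2 (0.968), Plekhh1 (0.964), Tpd52 (0.964), Fdft1 (0.958), Jarid2 (0.957) and Svip (0.955). Pearson's r takes no account of size: Esco1, a cohesin acetyltransferase, spanned only 1509 to 1727 in T-ETV1 and 1455 to 1534 in WT. Aacs, the acetoacetyl-CoA synthetase that feeds ketone bodies into lipid synthesis, had intensities of 320, 406, 287 and 334 in T-ETV1 A to D, against 241, 296 and 260 in WT A to C. Fdft1 had 1991, 3283, 2005 and 2211 in T-ETV1 A to D, against 1311, 1987 and 1297 in WT A to C. In both genes array B was the highest of each group, as in Sqle, Cyp51, Msmo1, Nsdhl and Hsd17b7. Since these genes were picked for likeness to the enzymes' profile, a shared highest array comes with the choice. The 22 measured cholesterol genes of the other lists ranged from 6th (Fdft1) to 9514th (Cyb5a) of the 10197. Their median rank was 1331, in the upper part of the order, and r was above 0 for 15 and below 0 for 7. The share of all 10197 genes with r above 0 was not counted. Of the 22, Idi1 came 156th, Srebf2 438th, Mvd 2277th (r = 0.367), Mbtps2 6648th (-0.302), and Cyb5a 9514th (-0.744). Mvk, the mevalonate kinase, which is named for its low place after its values were seen, came 7491st (-0.426).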

How the data were processed

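The authors deposited 1 intensity per probe set and array on a linear scale; the software, background correction and scaling behind these intensities are not stated in the labels. Values were taken as log2(intensity + 16). Array medians on that scale differed by at most 0.476, under the limit of 0.5 for quantile normalization, so the deposited scaling was kept. Gene names came from the platform annotation (34945 with 1 gene, 932 with several, 9160 not listed), with symbols updated by Entrez ID for 34741 from a GRCm38.p6 gene table. Each gene was represented by its brightest probe set on average. All 18193 genes were fitted together with limma 3.58.1 (R 4.3.3; linear model and empirical Bayes, T-ETV1 minus WT, two-sided, 6.67 degrees of freedom), with Benjamini-Hochberg adjustment and a threshold of 0.05. The number of arrays limits the precision. The fit was tested on simulated data.

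The members, gene lists and alternatives were chosen with earlier results of these data known. Named are the 9 enzymes, up to 4 genes of each other list by smallest p, and the 8 genes most like the enzymes in profile. Motif matches were counted in RefSeq promoter windows. Deviations from the group means correlated at 0.281, 0.217 and 0.356 for letters A, B and C, each over the limit of 0.1 for pairing. Among pairs of unlike letter T-ETV1 D with WT A, at 0.187, was over it as well. The rest lay between -0.32 and 0.039. Alternatives were median centring, quantile normalization, pseudocounts of 1 and 64, a filter on the lowest 30% of genes, the mean of probe sets, single probe sets, eBayes with trend or robust, the replicate block, and leaving out each array or both arrays C.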

Additional observations from a re-analysis of the deposited data

Results flagged for a closer look

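In 3 of the 30 genes named from the lists and profiles whose 4 T-ETV1 values were tested for a lone value, 1 array stood apart by Dixon's criterion, which chance meets in about 1 group in 20; in each it was T-ETV1 B. The gap to the nearest array took 0.855 of the T-ETV1 range in Msmo1 and 0.877 in Sc5d, where T-ETV1 B was the highest, and 0.839 in Ebp, where it was the lowest. For Sqle the same share was 0.806, which did not meet the criterion. How often T-ETV1 B stands apart over all genes was not counted. The 30 genes are also not independent, since some were picked for likeness to the enzymes' profile, so no weight is put on that number. The 3 WT arrays are too few for this test.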

How the results depend on the processing

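None of the 9 enzymes passed the limma threshold under any of the 18 alternatives, where the lowest adjusted p was 0.364 (Sqle without T-ETV1 C). Of 162 values of single enzymes under these alternatives 160 kept their direction. The exceptions were Lss with the replicate block (-0.0099), a fit of the arrays A to C, and Lss without T-ETV1 D (-0.0099); leaving out single arrays gave Lss values up to 0.18. Other values that moved by over 1.5 times were Lss (0.18) after quantile normalization, Lss (0.24), Ebp (0.25) and Sc5d (0.32) after median centring, Lss (0.21), Hsd17b7 (0.33) and Sc5d (0.10) with the mean of probe sets, Nsdhl (0.22) with the replicate block, and Lss (0.07) and Nsdhl (0.53) without both arrays C. Leaving out single arrays moved Lss, Cyp51, Nsdhl and Sc5d by as much: Lss without T-ETV1 A or D (values above) and without WT A (0.17) or WT C (0.07), Cyp51 between 0.10 and 0.53, Nsdhl between 0.20 and 0.55, and Sc5d at 0.00 without T-ETV1 B and 0.08 without WT C. The number of enzymes at an unadjusted p under 0.05, 3 as reported, was 1 in 4 alternatives, 2 in 3, 3 in 7 and 4 in 4. All features higher at that p ran from 265 (without WT A) to 708 (single probe sets, 34945 tested). The replicate block changed no call. Leaving out single arrays gave medians of the 9 enzymes between 0.20 (T-ETV1 B left out) and 0.54 (T-ETV1 C left out), and 0 to 27 genes past the threshold: 27 without T-ETV1 C and 7 without WT C, with 68 without both arrays C. The number of enzymes past the threshold was 0 in each of these. Median centring moved the median of all genes from -0.03 to 0.11 and that of the enzymes to 0.49, and quantile normalization moved them to 0.02 and 0.42. Genes at an unadjusted p under 0.05 were higher in 32.7% of cases as deposited, 51.1% after quantile normalization and 58.8% after median centring. Changes of low intensities are understated by the pseudocount. Among the enzymes' probe sets the widest SE, 0.60, was that of a dim one of Sc5d, while the dimmest, of Hsd17b7, had 0.17.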

Other observations

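The spread of the enzymes between arrays was larger in T-ETV1 than in WT for 8 of the 9 (log2 SD), with Hsd17b7 the exception, against 56.1% of all genes. Without T-ETV1 B it was larger for 4 of the 9, against 50.6% of all genes.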
